A study of Homo sapiens with 30 samples.

Results

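YAP and TEAD pathway genes are 10 genes named for their place in Hippo signalling: YAP1, WWTR1, TEAD1, TEAD4, CCN1, CCN2, ANKRD1, AMOTL2, AJUBA and LATS2. They were found by symbol among 20098 protein-coding genes of GENCODE release 44 on GRCh37, the build of the peak lists, and all 10 were present. The genes were selected on measured values of these libraries, namely their promoter and distal peaks, the ranks of those peaks and the rank change in the knockout line, so every value below is a description and no test was run on it. The cells were MDA-MB-231, an established triple-negative breast cancer line, as parental cells and as SAP30-KO1, a CRISPR/Cas9 knockout of SAP30 that per the study's methods was grown from a mixture of single knockout cells and not from 1 clone. SAP30, SIN3A and SIN3B, subunits of the SIN3 corepressor, were immunoprecipitated from parental cells only, while RNA polymerase II (Pol II), H3K4me3 and H3K9Ac were immunoprecipitated from both lines. Each of these 9 groups had 2 libraries with a list of peak summits, 18 lists of the 30 samples in the series, and nothing in the labels says whether the 2 came from separate cultures. With 2 libraries against 2, the smallest two-sided p of an exact permutation test would be 0.333.

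The Hippo pathway is a kinase cascade that holds the coactivators YAP and TAZ (the product of WWTR1) out of the nucleus. When it is inactive they enter the nucleus and bind TEAD proteins, which carry the DNA-binding domain, and together they switch on genes of growth, matrix and cytoskeleton such as CCN1, CCN2 and ANKRD1. Several targets, AMOTL2, AJUBA and LATS2 among them, encode regulators of the pathway itself. The SIN3 complex carries histone deacetylases, and H3K9Ac and H3K4me3 mark active promoters.

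Lists held between 10861 and 54622 summits, each the highest base of a peak with the authors' −log10 q-value as its score, and sequencing depth was unknown. Scores depend on depth, so a peak was placed by its rank, the percent of the other peaks of the same list that scored higher (0% is the best peak). A promoter peak was the best-scored summit within 1000 bp of a start site of the gene. As a check of the labelled line, KRT8, KRT18 and VIM had H3K4me3 at the promoter in 4 of 4 lists, and MYH7, ALB and INS, genes of heart, liver and pancreas, in 0 of 4. The promoter of SAP30 itself carried Pol II and H3K4me3 in 4 of 4 lists. A promoter peak of that gene does not check the knockout.

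TEAD proteins bind the letters GGAATG, read as CATTCC on the other strand. Between 250 bases before and 50 bases from the canonical start site, 8 of the 10 genes held them (80.0%), against 11.4% of 20098 protein-coding promoters in windows of the same length. WWTR1 and AJUBA held none in that window. AP-1 letters, TGANTCA, a palindrome read alike on both strands, occurred in 1 of the 10 (ANKRD1, 10.0%) and in 5.43% of all promoters. These letters are a description of the sequence, and the genes were named for their known link to TEAD. Stretches that carry them upstream of the canonical start site are shown for 6 of the genes. They lie within the promoter window in which SAP30 was found at each gene, at differing distances from the SAP30 summits. The sequences are from GRCh37, 5′ to 3′ on the strand of the gene, with TEAD and AP-1 letters in capitals:
YAP1, chr11:101980986-101981051, plus strand: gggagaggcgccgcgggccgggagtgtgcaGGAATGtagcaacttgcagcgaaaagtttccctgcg
TEAD4, chr12:3068538-3068562, plus strand: cggcgcgcatctCATTCCagccctc
CCN1, chr1:86046304-86046369, plus strand: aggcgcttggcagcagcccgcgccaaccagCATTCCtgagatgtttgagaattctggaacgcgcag
CCN2, chr6:132272572-132272711, minus strand: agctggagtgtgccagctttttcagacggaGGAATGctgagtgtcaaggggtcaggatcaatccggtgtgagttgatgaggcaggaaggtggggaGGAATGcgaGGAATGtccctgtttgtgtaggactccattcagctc
ANKRD1, chr10:92680937-92681094, minus strand: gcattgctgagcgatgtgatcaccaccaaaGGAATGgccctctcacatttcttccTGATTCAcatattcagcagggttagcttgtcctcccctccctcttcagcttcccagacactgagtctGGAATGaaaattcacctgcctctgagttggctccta
AMOTL2, chr3:134093323-134093388, minus strand: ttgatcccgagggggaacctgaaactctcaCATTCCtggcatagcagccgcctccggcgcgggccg

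In CCN2 the run holds 3 TEAD matches, starting 169, 104 and 95 bases before the start site, and in ANKRD1 it holds 2, starting 220 and 128 bases before it, with the AP-1 match between them. The YAP1 match starts 162 bases upstream, and the SAP30 summits of the YAP1 promoter lay 167 and 144 bases upstream. TEAD4, which encodes a DNA-binding partner of YAP, carries CATTCC 13 bases before its start site, and a second copy begins on the last base before the start. LATS2 held its match 10 bases into the transcript.

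The 10 promoters were occupied in most lists. Of the 180 combinations of gene and library, 170 (94.4%) had a promoter peak, 61 of them in the best 10% of the list and 18 in the best 1%. SAP30 was found in both libraries at all 10 genes (61.2% of all protein-coding genes), SIN3B at all 10 (51.7%) and Pol II of parental cells at all 10 (57.7%). SIN3A was in both libraries at 6 of the 10 (31.5% of all genes): YAP1, TEAD4, CCN1, CCN2, AMOTL2 and AJUBA. H3K4me3 of parental cells was in both libraries at 8 (63.8%) and H3K9Ac at 9 (61.4%). The median rank of the 10 genes in SAP30 lists was 17.2%, and that of the 12298 genes with SAP30 in both libraries was 17.1%. For Pol II of parental cells the medians were 14.6% and 25.4%, for H3K4me3 11.04% and 23.7%, and for H3K9Ac 8.59% and 12.2%. In SIN3B lists the 10 genes had a median of 28.2%, behind the 21.1% of all genes with SIN3B.

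**Figure D1:**
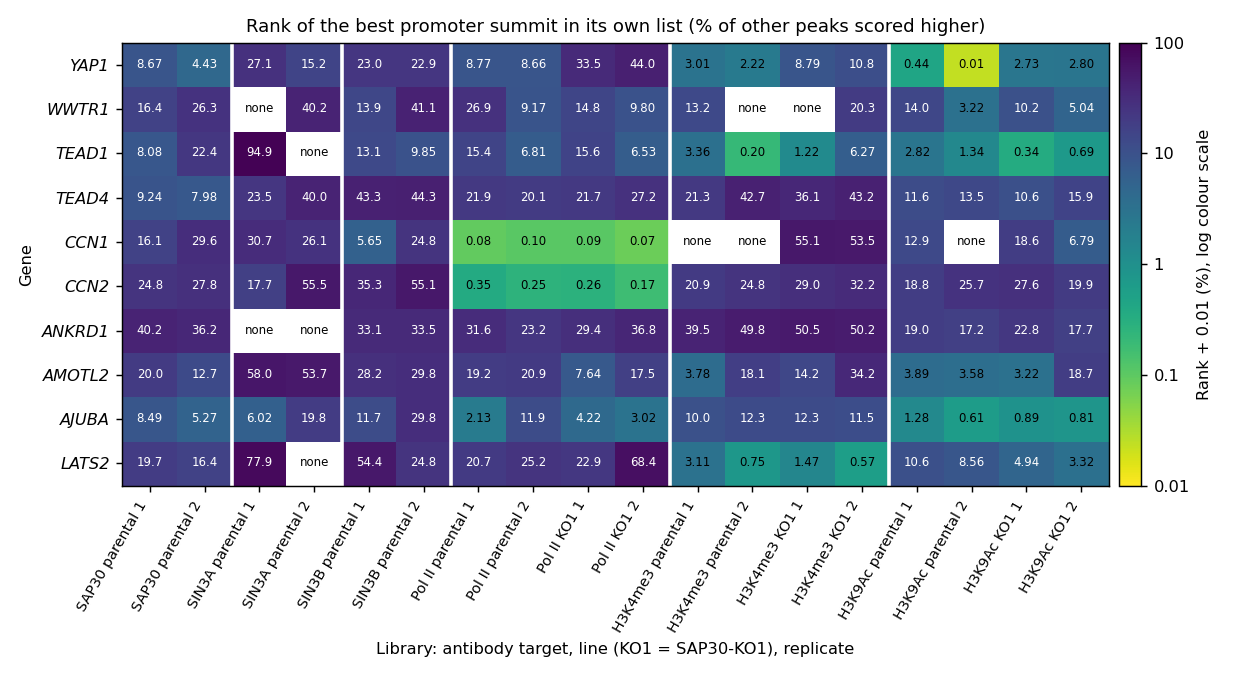
Each cell gives, for 1 gene (rows) in 1 library (columns), the percent of the other peaks of that list scored above the gene's best promoter summit, coloured on a log scale; "none" marks a gene without a summit within 1000 bp. CCN1 and CCN2 are below 1% in all 4 Pol II lists, and SIN3A is missing most often.

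YAP1, the coactivator itself, had a promoter peak in all 18 lists and ranked lower in the knockout for all 3 marks. Its SAP30 peak ranked 8.67% and 4.43%, its SIN3A peak 27.1% and 15.2%, and its SIN3B peak 22.97% and 22.92%. The H3K9Ac peak of YAP1 was among the best in the list, at 0.443% and 0.0130% in parental cells, and lay at 2.73% and 2.80% in SAP30-KO1. For H3K4me3 the ranks were 3.01% and 2.22% in parental cells and 8.79% and 10.8% in the knockout. Pol II at YAP1 ranked 8.77% and 8.66% in parental cells and 33.5% and 43.97% in SAP30-KO1, a mean change of 30.04 percentage points that is larger than that of 98.0% of the 10706 genes with a Pol II promoter peak in all 4 lists. In none of the 3 marks did the lines overlap at YAP1.

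YAP1 lies on the long arm of chromosome 11 (11q), at chr11:101981178-102104155. Of all chromosome arms with at least 50 such genes, 11q had the highest median rank change for each mark. For Pol II the median of 402 genes of the arm was 9.55 points, and 53.7% of them ranked worse in both knockout libraries than in both parental libraries, and 23 of the 402, YAP1 included, had a change of 30.04 points or more. The 8 other 11q genes within 5 Mb of YAP1 had a median of 9.42 points. Among genes whose parental mean rank was within 1 point of that of YAP1, the median Pol II change was 8.03 points for 13 on 11q and 2.26 for 478 on other arms. For H3K4me3 the arm median was 8.48 points, above the 7.19 points of YAP1, and for H3K9Ac it was 5.09 points, above its 2.53. At a parental mean rank within 1 point of YAP1, the H3K4me3 median was 10.4 points for 19 genes on 11q. It was 4.45 for 341 on other arms. For H3K9Ac these medians were 2.09 for 32 genes on 11q, below YAP1, and 0.200 for 509 on other arms. The change at YAP1 and the change along 11q cannot be told apart for the histone marks, and the part of the arm in the Pol II change was not tested.

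WWTR1, which encodes TAZ, showed no such shift. Its Pol II ranks were 26.9% and 9.17% in parental cells and 14.8% and 9.80% in SAP30-KO1, and its H3K9Ac ranks were 13.96% and 3.22% against 10.2% and 5.04%. The lines overlapped in both. SAP30 ranked 16.4% and 26.3% at WWTR1, SIN3B 13.9% and 41.1%, and SIN3A was found in replicate 2 only, at 40.2%. The H3K4me3 summit lay close to the edge of the window: at 965 and 912 bases it counted in 1 library of each line, with ranks of 13.2% and 20.3%, and at 1051 and 1023 bases it did not in the other.

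Among the DNA-binding partners, TEAD1 had the better-ranked histone marks, and TEAD4 was the one with SIN3A in both libraries. H3K9Ac at TEAD1 ranked 2.82% and 1.34% in parental cells and 0.342% and 0.693% in the knockout, so both knockout libraries placed it ahead of both parental ones, with a mean change of −1.56 points. Without parental replicate 1 the change was −0.821 points. H3K4me3 at TEAD1 was at 3.36% and 0.196% against 1.22% and 6.27%, and Pol II at 15.4% and 6.81% against 15.6% and 6.53%, both with overlap. SAP30 was at 8.08% and 22.4% there, and SIN3A at 94.9% in 1 library and absent in the other. TEAD4 had SAP30 at 9.24% and 7.98%, SIN3A at 23.5% and 40.0% and SIN3B at 43.3% and 44.3%. Its Pol II ranks were 21.9% and 20.1% in parental cells and 21.7% and 27.2% in the knockout, with overlap for all 3 marks.

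CCN1 and CCN2 encode secreted matricellular proteins and are widely used readouts of YAP activity. Both had Pol II promoter peaks at the very top of the lists in both lines. CCN1 ranked 0.0820% and 0.0956% in parental cells and 0.0943% and 0.0678% in SAP30-KO1. CCN2 ranked 0.352% and 0.252% against 0.257% and 0.167%. Neither pair of lines was separated. Their SAP30 peaks were less well placed, at 16.1% and 29.6% for CCN1 and 24.8% and 27.8% for CCN2.

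At CCN1 H3K4me3 peaked downstream of the window. In parental cells no H3K4me3 summit lay within 1000 bp, and in SAP30-KO1 both libraries had one 437 and 442 bases upstream, at ranks of 55.1% and 53.5%. This was the 1 gain of a promoter peak among the 10 genes, against 0.104% of all genes for H3K4me3. The stronger H3K4me3 summit of CCN1 was present in all 4 lists outside the window, between 1348 and 1374 bases downstream of the start, at 13.0%, 9.53%, 11.3% and 5.65%. H3K9Ac of CCN1 ranked 12.9% in parental replicate 1, 283 bases from the start, and 18.6% and 6.79% in SAP30-KO1, and in parental replicate 2 its nearest summit lay 1389 bases downstream, outside the window. At CCN2 the best H3K4me3 summit was also downstream, 924 to 974 bases from the start. It ranked 20.9% and 24.8% in parental cells and 29.0% and 32.2% in the knockout, worse in both by a mean of 7.76 points. With the summit nearest to the start in its place the direction turned, to −25.9 points with overlap, since parental replicate 2 had a second, lower-ranked summit 368 bases upstream.

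Pol II summits along the CCN1 gene differed more than the promoter rank. The gene, chr1:86046444-86050272, held 1 and 1 Pol II summits in parental lists and 7 and 5 in SAP30-KO1 lists. The added summits ran from 1.3 kb downstream of the start to the end of the gene, and the best of them stood 3641 and 3700 bases downstream, at 3.56% and 5.203%. CCN2 held 3 and 2 Pol II summits in parental lists and 4 and 5 in the knockout, and YAP1 1 and 1 against 5 and 3. At YAP1 none lay beyond the promoter windows, which held 2 and 2 Pol II summits in parental lists and 6 and 4 in the knockout. CCN1, CCN2 and YAP1 were the 3 of 10 genes with more Pol II summits in the gene in both knockout lists than in both parental lists. Of the 10, 0 had fewer. The shares of 12670 genes with a Pol II summit in any of these lists were 9.38% with more and 6.73% with fewer. An excess of at least 4 summits in every knockout list over every parental list was seen at 10 protein-coding genes, CCN1 among them. Whole Pol II lists held 20736 and 23002 summits in parental cells and 23342 and 22123 in SAP30-KO1. Peak widths were not used here, and the part of 1 wide peak being divided into several was not tested. For H3K4me3, 0 genes had more summits in the knockout (2.37% of all genes) and WWTR1 had fewer (5.29%), and for H3K9Ac 0 had more (4.68%) and 2 had fewer (8.04%), namely YAP1, with 14 and 13 against 9 and 10, and CCN2, with 2 and 3 against 1 and 1.

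**Figure D2:**
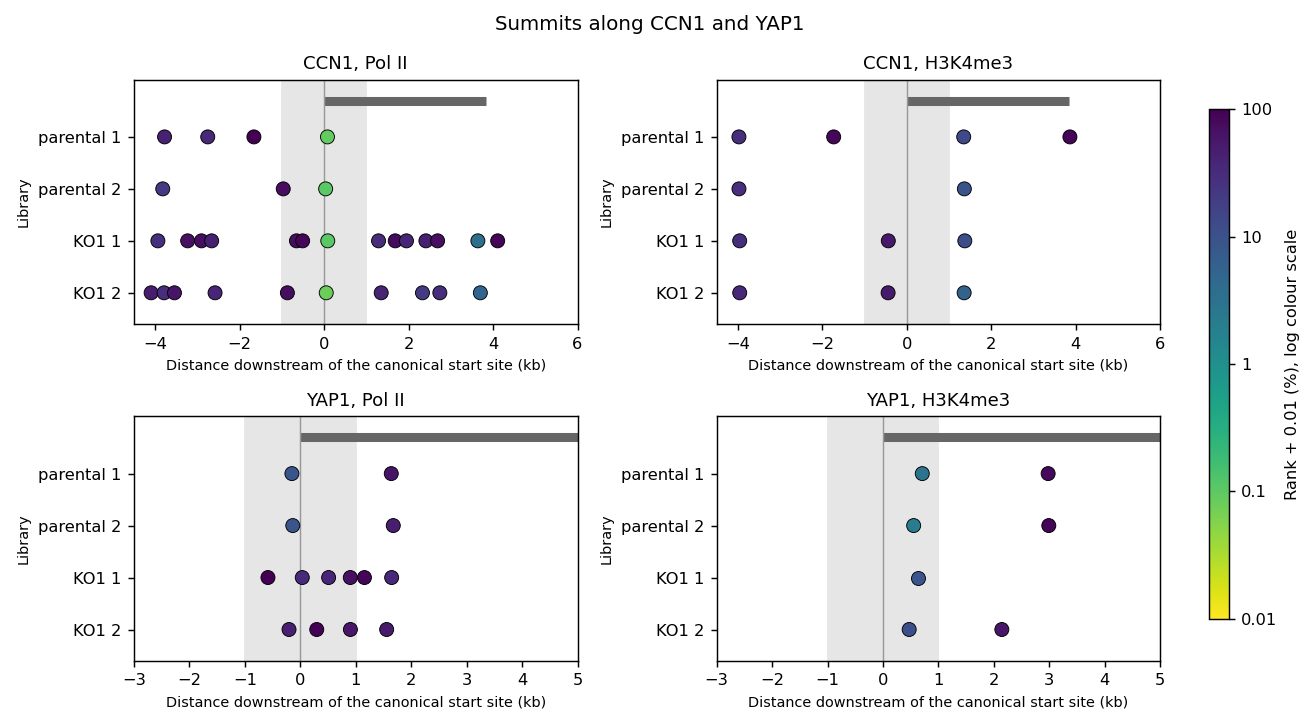
Summits of Pol II (left) and H3K4me3 (right) in the 4 libraries of each are placed by distance in kb from the canonical start site of CCN1 (top) and YAP1 (bottom), coloured by rank in their list on a log scale; the grey bar is the gene and the shaded band the promoter window. In SAP30-KO1 (KO1) the CCN1 gene holds 7 and 5 Pol II summits where parental lists hold 1 each, while the top-ranked summit at the start is in all 4.

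ANKRD1, a cardiac and stress-induced ankyrin repeat protein and a YAP target, had the worst mean rank of the 10 for SAP30 and for Pol II of parental cells. SAP30 ranked 40.2% and 36.2% and SIN3B 33.1% and 33.5%, and SIN3A had no promoter summit in either library. Its Pol II ranks of 31.6% and 23.2% in parental cells and 29.4% and 36.8% in SAP30-KO1 overlapped. H3K4me3 stood at 39.5% and 49.8% against 50.5% and 50.2%. That counts as worse in both knockout libraries by a mean of 5.75 points, but without parental replicate 1 the difference was 0.604 points and without parental replicate 2 it was 10.9.

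AMOTL2, AJUBA and LATS2 act back on the pathway. AMOTL2, an angiomotin-family protein that binds YAP in the cytoplasm, was the 1 gene whose Pol II ranks were better in both knockout libraries, at 7.64% and 17.5% against 19.2% and 20.9% in parental cells. The mean difference was −7.47 points, −2.53 without knockout replicate 1 and −12.4 without knockout replicate 2. Its H3K4me3 ranks lay the other way with overlap, at 3.78% and 18.1% in parental cells and 14.2% and 34.2% in the knockout. SAP30 was at 19.97% and 12.7% there, SIN3A at 58.0% and 53.7% and SIN3B at 28.2% and 29.8%. AJUBA, a LIM-domain protein that restrains LATS kinases, had SAP30 at 8.49% and 5.27%, SIN3A at 6.02% and 19.8% and SIN3B at 11.7% and 29.8%. Its best-scored SIN3B summits belonged to another start site of the gene than those of SAP30 and SIN3A. SIN3B replicate 1 also had a summit 229 bases upstream of the canonical start, and replicate 2 had none nearer than 1896 bases to that start. Its H3K9Ac ranks were 1.28% and 0.611% in parental cells and 0.893% and 0.809% in the knockout, and its Pol II ranks 2.13% and 11.9% against 4.22% and 3.02%. AJUBA was thus well placed in both lines, which overlapped for all 3 marks. LATS2, the kinase that phosphorylates YAP, ranked better for H3K9Ac in both knockout libraries, at 4.94% and 3.32% against 10.6% and 8.56%, a difference of −5.45 points. Pol II at LATS2 was at 20.7% and 25.2% in parental cells and at 22.9% and 68.4% in SAP30-KO1. SAP30 was at 19.7% and 16.4% at LATS2. For Pol II 1 library decided the mean: it differed by 22.7 points with all libraries and by −0.115 points without knockout replicate 2.

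Counted over the 10 genes, promoter ranks differed between the lines in both directions. For Pol II all 10 had a peak in all 4 lists: 1 was worse in both knockout libraries (YAP1, against 23.6% of all genes), 1 was better (AMOTL2, against 15.8%) and 8 overlapped, with a median change of −0.00617 points where 10706 genes had 1.31. For H3K4me3, 8 genes had a peak in all 4 lists, all but WWTR1 and CCN1. Of these, 3 were worse (YAP1, CCN2 and ANKRD1, against 28.2%) and 0 were better (11.5%). Their median change was 6.47 points against 2.09 for 12531 genes. These 8 had better parental ranks, with a median of 11.04% against 23.7% for 12825 genes with H3K4me3 in both parental lists. The part of the starting rank in the median change was not tested. For H3K9Ac, 9 genes counted, all but CCN1: 1 was worse (YAP1, against 22.1%), 2 were better (TEAD1 and LATS2, against 16.4%), and the median was 0.731 points against 0.312 for 12048 genes. No promoter peak was lost at the 10 genes, where 1.34% of all genes lost Pol II, 0.916% lost H3K4me3 and 0.423% lost H3K9Ac. Apart from H3K4me3 at CCN1 none was gained, where the shares of all genes were 0.134% for Pol II and 0.328% for H3K9Ac. The balance of all genes depended on the scale. Of the genes that separated, 59.9% were worse in Pol II lists, 71.0% in H3K4me3 lists and 57.5% in H3K9Ac lists, and 49.2%, 52.1% and 50.2% when ranks were taken only among promoter peaks found in all 4 lists. With lists of equal length the shares were 64.3%, 56.2% and 45.7%.

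**Figure D3:**
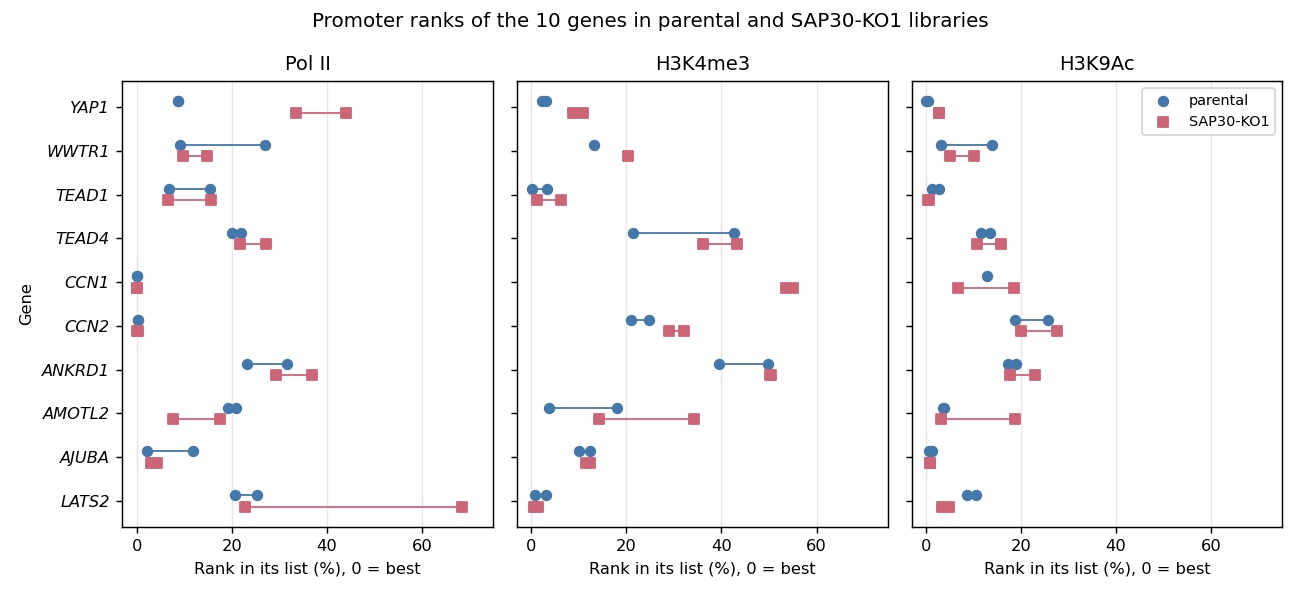
Promoter ranks (x axis, percent, 0 is best) of the 10 genes (y axis) in 2 parental (blue circles) and 2 SAP30-KO1 (red squares) libraries for Pol II, H3K4me3 and H3K9Ac, with a line joining the 2 libraries of a line. YAP1 is the gene whose red squares lie to the right of its blue circles in all 3 panels.

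**Figure D4:**
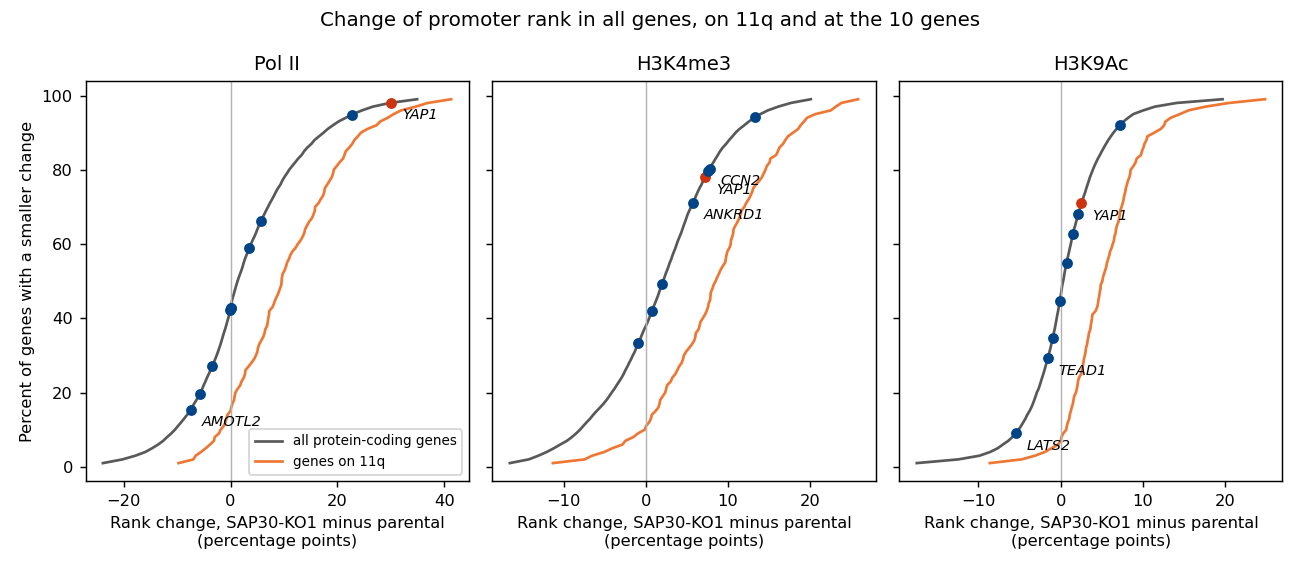
Rank change, SAP30-KO1 minus parental in percentage points (x axis), against the percent of protein-coding genes with a smaller change (y axis); the grey line is all genes, the orange line genes on 11q with percentiles counted within the arm, blue points are the 10 genes and YAP1 is red, with names for genes whose lines did not overlap. The orange line lies to the right of the grey line for each mark, with medians of 9.55, 8.48 and 5.09 points.

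Beyond the promoter windows the 10 genes, 808 kb in all, held 36 and 39 SAP30 summits, or 0.0445 and 0.0482 per kb, against 0.0108 and 0.0103 per kb of all protein-coding genes outside their own promoter windows. For SIN3A there were 4 and 3 summits, 0.00495 and 0.00371 per kb against 0.00118 and 0.00118. In each of the 18 lists the density was higher in the 10 genes, which were chosen with these summits known. Over genes and 50 kb on each side the mean over lists was 3.93 summits per 100 kb. A distal SAP30 region was a run of SAP30 summits, each within 1000 bp of the next, that held summits of both libraries. Its span lay more than 1000 bp from every start site. A mark counted as present there when a summit lay within 1000 bp of the span. Of 11664 such regions, 34 lay within 50 kb of one of the 10 genes: 9 at TEAD1, 5 each at CCN1 and AMOTL2, 4 at WWTR1, 3 at YAP1, 2 each at ANKRD1, AJUBA and LATS2, and 1 each at TEAD4 and CCN2. SIN3A was in both libraries at 0 of the 34 (3.3% of all distal regions) and SIN3B at 11 (22.4%). In parental cells Pol II was in both libraries at 12 (22.6%), H3K4me3 at 11 (25.2%) and H3K9Ac at 25 (67.4%).

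The best-ranked distal region of each gene carried different marks. The region of TEAD4, inside the gene 4826 bases from the canonical start, had Pol II, H3K4me3 and H3K9Ac in all 12 lists of these marks. So did that of AJUBA, 24271 bases upstream of the gene in an intron of C14orf93. That of CCN1 lay 31343 bases downstream in intergenic sequence and had Pol II and H3K9Ac in every list and H3K4me3 in none. The region of ANKRD1, 9448 bases upstream, held Pol II and H3K9Ac in every list. That of CCN2, in an exon of the gene 2556 bases from its start, held Pol II in every list. H3K4me3 also counted there in every list, but the promoter summits 924 to 974 bases from the start lay within its reach. In parental replicate 2 and SAP30-KO1 replicate 1, CCN2 and its flanks had no H3K4me3 summit beyond the promoter window. At TEAD1, in an intron 19635 bases from the start, both histone marks were in every list, as they were at AMOTL2, in an intron 10192 bases from the canonical start. The regions of YAP1, in an intron 115572 bases from the start, and of LATS2, in an intron 27427 bases from the start, held H3K9Ac in at least 3 of 4 lists and no Pol II. That of WWTR1, in an intron 68545 bases from the canonical start, carried SAP30 alone.

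In the knockout, Pol II was lost at 1 of the 34 (4.72% of all distal regions) and gained at 0 (0.343%), H3K4me3 was lost at 2 (2.1%) and gained at 0 (0.352%), and H3K9Ac was lost at 2 (2%) and gained at 1 (1.39%). A region 35225 bases past the end of YAP1, chr11:102139380-102139494, lost both histone marks. It also lies on 11q, and the part of the arm was not tested. The others were an intron of WWTR1, chr3:149293531-149293945, that lost H3K4me3, an intron of TEAD1, chr11:12836486-12836505, that lost H3K9Ac, an intron of ANKRD1, chr10:92677910-92678172, that lost Pol II, and an intron of TEAD1, chr11:12748008-12748029, that gained H3K9Ac.

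**Figure D5:**
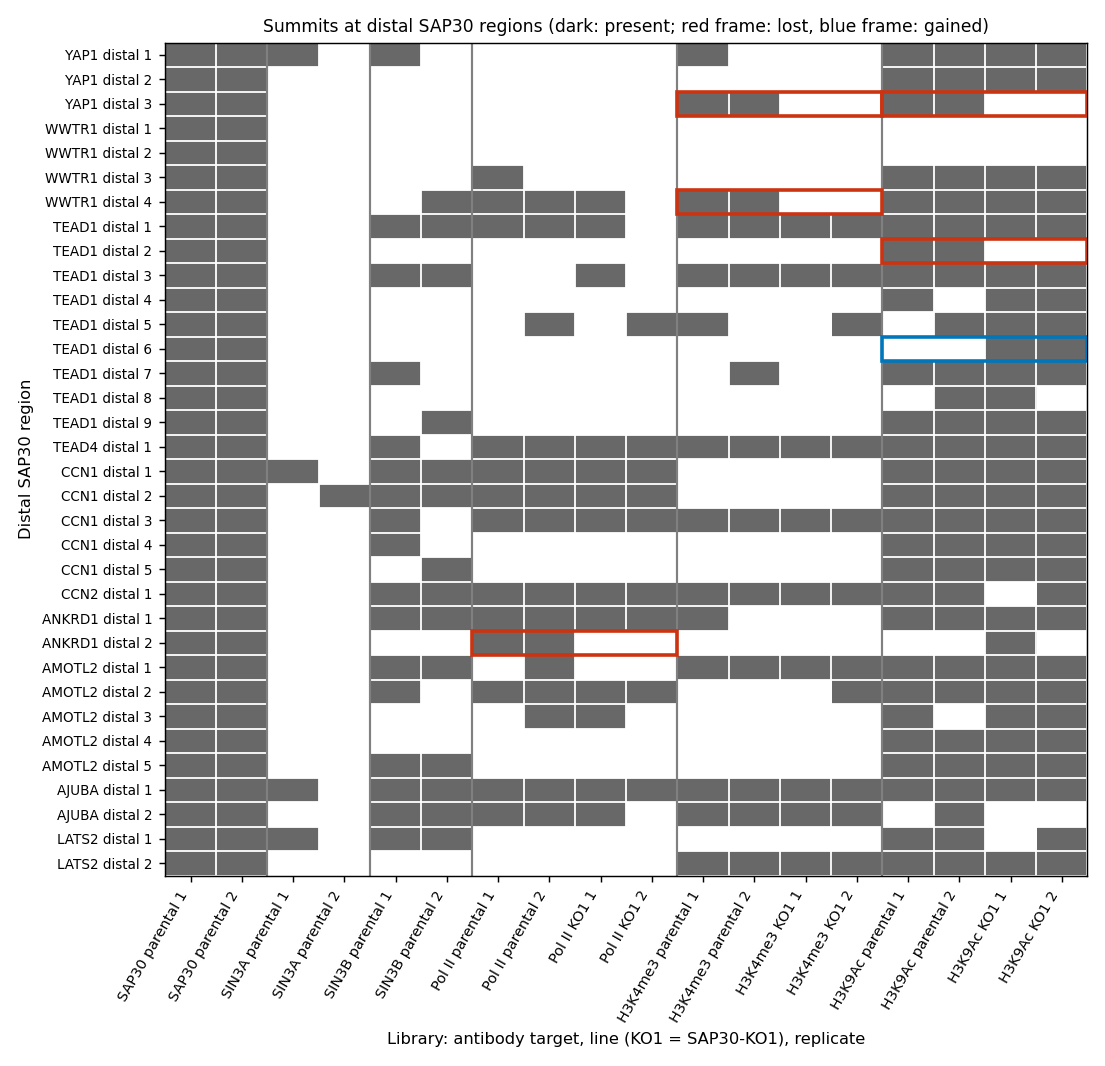
Presence (dark) of a summit at each of the 34 distal SAP30 regions (rows, numbered within a gene by mean SAP30 rank) in each of the 18 libraries (columns); red frames mark a signal in both parental and neither SAP30-KO1 library, and blue frames the reverse. H3K9Ac is the mark most regions carry, in both parental libraries at 25 of them.

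Within 150 bases of the distal SAP30 summit, TEAD letters occurred in 9 of the 34 regions (26.5%) and in 22.5% of all distal SAP30 regions, and AP-1 letters in 11 (32.4%) and in 42.8%. The share of distal regions with TEAD letters was thus close to that of all such regions, unlike the share of promoters. Sequences are shown for 5 of the regions described above that hold TEAD letters, to set the letters beside the SAP30 summit, on the plus strand of GRCh37, with TEAD letters in capitals:
YAP1 intron, chr11:102096699-102096793: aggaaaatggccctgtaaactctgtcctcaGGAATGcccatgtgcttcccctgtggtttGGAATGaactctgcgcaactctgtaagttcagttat
YAP1 downstream, chr11:102139363-102139428: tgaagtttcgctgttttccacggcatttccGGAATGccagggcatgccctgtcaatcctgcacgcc
WWTR1 intron, chr3:149293417-149293491: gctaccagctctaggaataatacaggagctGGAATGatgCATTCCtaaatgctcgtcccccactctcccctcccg
CCN1 downstream, chr1:86077754-86077819: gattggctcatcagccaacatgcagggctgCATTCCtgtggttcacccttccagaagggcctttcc
AMOTL2 intron, chr3:134083059-134083124: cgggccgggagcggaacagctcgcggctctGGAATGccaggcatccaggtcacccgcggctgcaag

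SAP30 summits of the 2 libraries did not fall on the same base, so distances are given for replicates 1 and 2 in turn, each for its best-ranked summit in the region. In the CCN1 region the match starts 3 and 2 bases from the summit, and in the AMOTL2 region 8 and 27 bases. The YAP1 intron has one copy 21 and 90 bases from the summit and the other 8 and 61 bases, so both lie on the same side of the summit of replicate 2. In the region downstream of YAP1 the match starts 101 and 13 bases from the summit. The WWTR1 intron carries GGAATG and CATTCC 3 bases apart. There GGAATG starts 111 and 84 bases from the summit, and CATTCC 102 and 75 bases.

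A second list of 36 genes set the 10 in their pathway: 20 other Hippo pathway genes and 16 other YAP target genes, also chosen with earlier results known. Both parental libraries had SAP30 at 32 of the 36 (61.2% of all genes), SIN3A at 19 (31.5%), SIN3B at 28 (51.7%), Pol II at 32 (57.7%), H3K4me3 at 34 (63.8%) and H3K9Ac at 33 (61.4%). In the knockout, Pol II was worse in both libraries at 10 (23.6% of all genes) and better at 2 (15.8%) of the 28 genes with a peak in all 4 lists, with a median change of 6.17 points. H3K4me3 was worse at 12 (28.2%) and better at 4 (11.5%) of 34, with a median of 2.77 points. H3K9Ac was worse at 9 (22.1%) and better at 3 (16.4%) of 33, with a median of 1.13 points. The H3K4me3 and H3K9Ac counts of worse genes lie near the shares of all genes. The Pol II peak of WWC1, which encodes the scaffold KIBRA that activates LATS kinases, was at 50.1% and 61.5% in parental cells and absent from both knockout lists, the 1 promoter peak of this list lost or gained.

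Genes are named next only where the 2 lines did not overlap, the 2 with the largest difference in each direction, and genes with overlapping lines could differ by more. For Pol II, AMOTL1 was worse by 31.7 points, at 33.4% and 36.6% in parental cells and 52.3% and 81.1% in SAP30-KO1, and by 17.3 points without knockout replicate 2. AMOTL1, a relative of AMOTL2, lies like YAP1 on 11q, where ranks in the knockout were worse along the arm, and the part of the arm was not tested. LIMD1, a LIM-domain relative of AJUBA, was worse by 20.4 points, at 21.7% and 17.9% against 34.4% and 45.97%. AXL, a receptor tyrosine kinase, was better, at 14.3% and 6.18% against 5.19% and 2.62%, a change of −6.35 points that was −2.27 without parental replicate 1 and −10.4 without parental replicate 2. GADD45A, at 0.680% and 0.674% against 0.450% and 0.402%, changed by −0.251 points.

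For H3K4me3, AMOTL1 was worse by 16.3 points and MOB1A, a cofactor of the LATS kinases, by 15.1 points, or 9.53 without knockout replicate 1. STK4, an upstream kinase of the cascade, was better, at 3.79% and 23.05% in parental cells and 1.36% and 1.64% in the knockout. Parental replicate 2 carried most of that change, which was −11.9 points and −2.29 without it. CRIM1 changed by −10.2 points. For H3K9Ac, IGFBP3 was worse by 23.8 points, at 37.2% and 28.6% against 55.1% and 58.2%. FOXF2 was worse by 19.6 points, at 25.5% and 27.2% against 60.6% and 31.2%, but by 4.85 points without knockout replicate 1 and 34.3 without knockout replicate 2. MOB1B changed by −4.43 points (−1.29 without parental replicate 2, −7.57 without parental replicate 1) and DOCK5 by −1.97 (−0.560 and −3.38).

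For CCN1 and CCN2, the genes with the best Pol II ranks, the most similar promoters were sought. Likeness was the mean absolute difference of promoter ranks over the 18 lists, with an absent peak counted as 100%. The genes nearest to CCN1 were GPRC5A (13.8 points), MRPL18 (14.7) and DDAH2 (17.0), and its nearest among the 10 was CCN2, at 23.2. CCN1 counted as absent in both parental H3K4me3 lists and in H3K9Ac of parental replicate 2, where its nearest summit lay outside the window. The part of these absences in the CCN1 distances was not tested. For CCN2 they were BAIAP2 (6.67 points), BCL2L11 (6.81) and ZNF28 (7.26), with TEAD4 nearest among the 10, at 13.45.

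Other start sites fell in the windows of 4 genes: a lncRNA gene (ENSG00000277459) at YAP1, WWTR1-AS1 at WWTR1, LINC01013 at CCN2, and AJUBA-DT with a readthrough gene (ENSG00000259132) at AJUBA. Peaks there cannot be assigned to 1 of the transcripts. The summits nearest to the limit of the window were at 997 bases inside it, for SAP30 replicate 2 at CCN1 and H3K9Ac of SAP30-KO1 replicate 2 at AJUBA, and at 1023 bases outside it, for H3K4me3 at WWTR1.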

How the data were processed

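ChIP-seq summit lists of 18 libraries were analysed in groups taken from the labels. The 12 input and total H3 samples were not analysed here. The authors called peaks with MACS2 in each library, and the deposited value of each 1-bp summit is a −log10 q-value, at least 1.30. The submitters' processing notes name FastQC 0.11.2, Bowtie2 2.3.3.1, Picard, MACS2 2.1.0 and hg19, with no options, and which control each list was called against is not given in the sources used here. Depth is unknown, so scores were only ranked within a list. Lists hold what passed the authors' threshold, so a missing summit is not an absent signal.

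Gene positions and start sites of basic transcripts came from GENCODE release 44 on GRCh37, and sequences from the GRCh37 primary assembly. Of the promoter sequences, 1 is not reported here. Ranks, windows and regions were computed with Python 3.11.15, pandas 2.3.3 and numpy 2.4.6, and the code was tested on simulated data. The change in a mark is the mean rank in SAP30-KO1 minus that in parental lists, for genes with a promoter peak in all 4. Lost means both parental and neither knockout library. The members and lists were chosen with earlier results of these data known. All 10 genes are named. From the second list, the 2 genes moved most in each direction per mark, among those whose lines did not overlap, and any lost or gained peak are named, and from distal regions the best SAP30 rank per gene and any with a mark lost or gained. Replicate summits on the same base were 0.243% to 1.24%, so no library is a copy. Alternatives were other windows, flanks and extensions, the canonical start only, the nearest summit, the better 50% of each list, equal list lengths, ranks among shared promoters, leaving out 11q and leaving out each library.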

Additional observations from a re-analysis of the deposited data

How the results depend on the processing

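The share of gene and library combinations with a promoter peak was 94.4%, 83.9% with a window of 500 bp, 98.3% with 3000 bp and 87.8% with the better 50% of each list, and between 93.3% and 95.6% without either replicate. The median Pol II change of −0.00617 points ranged from −0.0779 to 3.70 points when a library was left out, and with 3 libraries between 2 and 4 genes were worse (32.5% to 46.1% of all genes) and between 1 and 4 better (22.7% to 35.7%). With lists of equal length 3 genes were worse for Pol II (26.3% of all genes), and 2 with ranks among promoter peaks found in all 4 lists (19.8%). For H3K4me3 the median ranged from 2.07 to 8.26 points without a library, with between 4 and 6 genes worse (36.9% to 51.8%) and between 0 and 1 better (19.3% to 29.2%), and a window of 500 bp left 1 worse (28.2%). For H3K9Ac it ranged from −0.404 to 0.525 points, with between 2 and 4 worse (35.2% to 40.2%) and between 2 and 4 better (29.2% to 33.9%), and with the summit nearest to the start 2 were worse (20.8%). That median, 0.731 points with all libraries, also fell below 0 with a window of 500 bp (−0.116) and with lists of equal length (−0.0758). Fewer libraries make it easier for lines to separate. H3K4me3 at CCN2 turned to −25.9 points with the nearest summit, and ANKRD1 overlapped with lists of equal length and with ranks among shared promoters. YAP1 stayed worse in all 11 alternatives for each mark, AMOTL2 better for Pol II in 11, and TEAD1 and LATS2 better for H3K9Ac in 11. Leaving out a library cannot undo a separation seen with all of them, so those settings could not change the side. For these genes and marks the other windows, the canonical start and the better 50% of each list left the change as it was. Among shared promoters the YAP1 changes were 53.4, 14.1 and 10.7 points for Pol II, H3K4me3 and H3K9Ac. The 11q medians were then 12.6, 10.1 and 13.9. With the summit nearest to the start the Pol II change at YAP1 was 55.5 points, and the 11q median was 13.0. Without 11q the medians of all genes were 1.07, 1.91 and 0.163 points. Summits per 100 kb were 4.22 with flanks of 25 kb and 3.59 with 100 kb. The 34 distal regions became 39 and 29 with extensions of 250 and 1000 bp and between 43 and 45 with 1 SAP30 library, and TEAD letters were in 35.3% of the 34 within 250 bases, and in 32.6% of all distal regions. No paired analysis was possible because no result comes from a test, and differences within replicate numbers were not computed. Unknown depth limits every absent peak.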
